A study of Danio rerio with 9 samples.

Results

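Transcript levels of zebrafish (Danio rerio) embryos in late gastrulation and at the tailbud stage were compared with those of embryos at the onset of gastrulation. The late side held the arrays of 75% epiboly, 90% epiboly and tailbud, and the early side those of 30% epiboly, 50% epiboly and shield. These 6 arrays were chosen by their stage labels from the 9 arrays of a developmental series. Embryos of every stage were uninjected, came from outbred wild-type stock kept at 28.5 °C, and carried no named allele or treatment. RNA was taken from 30 to 50 whole embryos of 1 clutch per stage, so the embryos of a stage were pooled. Each stage was hybridised once, as Cy5, against a Cy3 pool made of equal RNA from all 9 stages, on a spotted oligonucleotide array. The labels give the stage as Cy5 on every array, while the text of the series mentions dye swaps. The sign of all ratios, stage over pool, rests on the labels. No stage had a replicate. Neighbouring stages stood in for replicates on each side, so the error of the test mixes array noise with real change inside a side, and p-values do not measure variation between clutches.

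Epiboly is the thinning and spreading of the blastoderm over the yolk, and its percentage gives how far the margin has moved. By the usual staging of zebrafish, 30% epiboly closes the blastula period, although it is grouped here with the early gastrula. At 50% epiboly cells at the margin begin to move inward, and at shield a thickening appears on the dorsal side, the embryonic shield, which acts as the organizer. From 75% to 90% epiboly the germ layers spread, converge towards the dorsal midline and extend, and at tailbud the yolk is covered and the axis and neural plate are laid down before the first somites form. Transcripts present here come from the mother, from the embryo's own genome, or from both. In whole embryos, fewer cells of a kind and less RNA per cell cannot be told apart.

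Values are log2 ratios of stage over pool, centred within each array by loess, so higher and lower are relative to the other probes of an array and are not amounts per embryo. The late arrays were brighter than the early ones. The median Cy5 spot signal was 980, 807 and 745 at 75% epiboly, 90% epiboly and tailbud, against 566, 453 and 324.5 at 30% epiboly, 50% epiboly and shield, with no overlap. The median Cy3 signal of the pool was 956 to 1188 on the late arrays and 548 to 895.25 on the early ones. Of 16178 probe IDs, 10193 to 11274 gave a Cy5 signal above the blank level on the late arrays, against 6531 to 9170 on the early arrays, where shield stood apart as the dimmest. Each array has 262 blank spots, and the 95th percentile of their signals in a channel is taken as that channel's blank level.

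Both directions of change were found between late gastrula with tailbud and early gastrula. Of 16098 tested probes, 1013 were higher and 1296 were lower in late gastrula and tailbud (limma, adjusted p under 0.05), 6.29% and 8.05% of those tested and 14.3% in all. The median difference was 0.83 on the log2 scale among the higher probes and -0.84 among the lower ones, against -0.02 over all tested probes. The difference was at least 2-fold for 347 of the higher and 436 of the lower probes, 2.16% and 2.71% of those tested. It was at least 4-fold for 40 and 30, and at least 8-fold for 9 higher probes and 1 lower probe. The largest differences of all tested probes were 3.70 and -3.60. At an unadjusted p under 0.05 there were 4642 probes.

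The 3 late values lay above all 3 early values for 2584 probes (16.1% of those tested) and below them for 2920 (18.1%). Of the called probes, 1009 of 1013 and 1294 of 1296 were among these. The calls were made on the same values, and they favour probes whose sides do not overlap. These counts are therefore no separate support for the calls. Across probes, which are not independent replicates, arrays of the late side correlated at r = 0.69 to 0.82 with each other and arrays of the early side at 0.70 to 0.80. Between the sides r lay between 0.05, for tailbud and 30% epiboly, and 0.64, for 75% epiboly and 50% epiboly. The spread inside a side was similar, with a median SD of 0.18 over the 3 late arrays and 0.17 over the 3 early arrays.

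**Figure D1:**
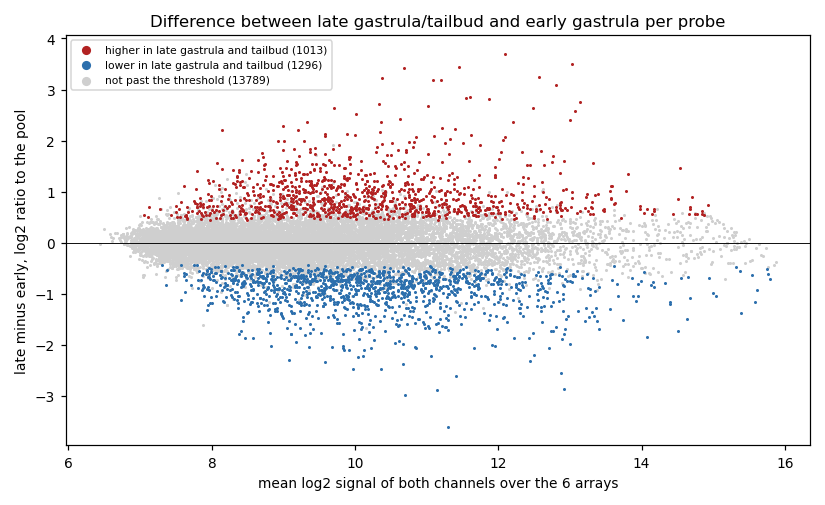
Each point is 1 tested probe, with its mean log2 signal over both channels and 6 arrays on the x axis and its late minus early difference in log2 ratio on the y axis. The 1013 probes higher in late gastrula and tailbud (red) and the 1296 lower ones (blue) lie on either side of a grey band of probes that did not pass the threshold.

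The files pair no gene name with the oligonucleotide IDs, so the probes chosen by rule are given by ID. In each direction, 1 is the called probe with the largest difference among those above the blank level on all 6 arrays, and 1 is that with the largest difference among those above it on the whole higher side and nowhere on the lower side. CGENXEB_456008602_0 represents the first kind among the higher probes. Its log2 ratio was 0.13, 0.80 and 1.48 at 75% epiboly, 90% epiboly and tailbud, against -3.10, -2.26 and -1.95 at 30% epiboly, 50% epiboly and shield. Every late value exceeded every early one, and the ratio climbed at each step. Its Cy5 signal was 14194.5, 26315.5 and 43483.5 on the late arrays and 923, 1371 and 925 on the early ones. The ratio was 9.45-fold higher in late gastrula and tailbud (difference 3.24 ± 0.36 on the log2 scale, SE, 3 arrays a side; limma, adjusted p = 0.0031). At 64-cell, high and sphere, which the comparison did not use, it was -3.84, -3.70 and -3.67, below all 6 later values. The image software flagged its spot at 75% and 90% epiboly.

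CGENXEB_456000396_0 was below the blank level up to shield and above it afterwards. Its log2 ratio was -1.56, -0.62 and 1.59 at 75% epiboly, 90% epiboly and tailbud, against -3.86, -3.50 and -3.53 at 30% epiboly, 50% epiboly and shield. The late values spanned much more than the early ones, since most of its increase came after 75% epiboly. The mean ratio was -0.19 ± 1.62 on the late side and -3.63 ± 0.20 on the early side (SD, n = 3 arrays), a difference of 3.44 ± 0.63 (SE; limma, adjusted p = 0.01). Its Cy5 signal was 2299.5, 7220 and 27117.5 on the late arrays and 397, 316 and 305 on the early ones. In the Cy5 channel alone, after loess and Aquantile normalization, late gastrula and tailbud were 10.9-fold brighter. Here an early value counts as the higher of its own signal and the lowest signal of a probe above the blank level, and dye bias remains possible because no dye-swapped array was analysed here. Each early value was its own signal, so the fold is that of the normalized means. The early signals were below the blank level, so the fold is approximate and is not a lower bound.

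Among the lower probes CGENXEB_456013104_0 had the largest difference. Its log2 ratio was -3.08, -4.01 and -4.32 at 75% epiboly, 90% epiboly and tailbud, against 1.33, -1.23 and -0.70 at 30% epiboly, 50% epiboly and shield. All late values lay below all early ones, and the early values were themselves spread over more than 2 log2 units. The difference was -3.60 ± 0.58 (SE; limma, adjusted p = 0.0078). This probe had a low ratio at first, with -3.52 at 64-cell, and reached -0.50 at high and 2.84 at sphere, its highest value of the 9 stages. Its Cy5 signal was 1176, 946.5 and 707 on the late arrays, still above the blank level, against 7727, 1289 and 785.5 on the early ones. The Cy3 signal of the pool at this spot was 9173, 13418.5 and 14387 on the late arrays and 3538, 3860 and 1370 on the early ones. Part of the difference in ratio thus lies in the pool channel. In the Cy5 channel alone, after the normalization described above, early gastrula was 5.32-fold brighter, against 12.16-fold by the ratio. The stage channel alone gave a difference of -2.40 (limma, adjusted p = 0.037). The spot was flagged at 50% and 90% epiboly. With all 9 arrays sharing 1 estimate of the spread its adjusted p was 0.079, and it no longer passed.

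CGENXEB_456012994_0 was above the blank level on the early side and below it on the late side, as only 2 of the tested probes were. Its log2 ratio was -1.08, -1.35 and -1.69 at 75% epiboly, 90% epiboly and tailbud, against 0.96, -0.31 and 0.59 at 30% epiboly, 50% epiboly and shield. The sides did not overlap, with the early value at 50% epiboly nearest to the late ones. The difference was -1.79 ± 0.30 (SE; limma, adjusted p = 0.0086). Its Cy5 signal as scanned was 470, 439 and 316 on the late arrays and 1372, 483 and 483 on the early ones, so 50% epiboly and shield were close to 75% and 90% epiboly. The blank level was 624, 530.7 and 402.3 on the late arrays and 514.8, 384.8 and 407.5 on the early ones. Close signals on these arrays thus fell on different sides of the blank level. After the normalization described above the fold between the Cy5 means of early gastrula and of late gastrula and tailbud was 3.42. The spot was flagged at 30% epiboly and shield, where its ratio was highest among the 6 arrays. Its ratio was already high at 64-cell (1.24), high (1.15) and sphere (1.48). With the array's median Cy5 signal as a term its difference was -2.27, larger in size, and its adjusted p (limma) was 0.068. That signal does not overlap between the sides.

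**Figure D2:**
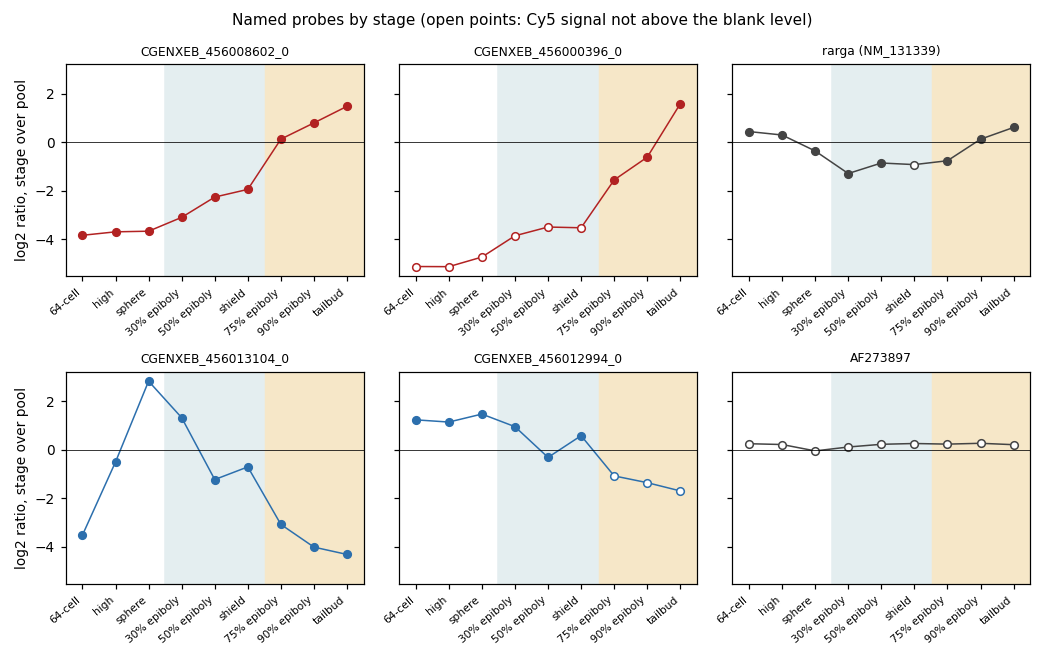
Log2 ratio of stage over pool of 6 named probes at the 9 stages, 1 array each, with early gastrula shaded blue and late gastrula and tailbud shaded sand. Open points mark a Cy5 signal not above the blank level, red and blue mark probes past the threshold, and grey marks the rarga probe and AF273897, which did not pass it.

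Only 1 probe could be given a gene name. NM_131339 is an accession of rarga, the gene of retinoic acid receptor gamma a. This nuclear receptor regulates transcription when bound by retinoic acid, which helps to pattern the hindbrain and trunk along the anterior-posterior axis. The rarga probe had log2 ratios of -0.76, 0.12 and 0.61 at 75% epiboly, 90% epiboly and tailbud, against -1.29, -0.86 and -0.92 at 30% epiboly, 50% epiboly and shield. The sides did not overlap, but the value at 75% epiboly lay close to those at 50% epiboly and shield. At 64-cell, high and sphere, which the comparison did not use, the ratio was 0.44, 0.30 and -0.36, above all early gastrula values. The Cy5 signal as scanned was 5294.5 at 64-cell, the highest of the 9 arrays, but that array also had the highest median Cy5 signal (995.25). By the ratio the tailbud value was the highest, and the probe was higher before early gastrula than in it. The Cy5 signal was 1097.5, 2218.5 and 2378.5 on the late arrays and 555, 428 and 320 on the early ones, of which the shield signal was not above the blank level. The mean ratio was -0.01 ± 0.70 on the late side and -1.02 ± 0.23 on the early side (SD, n = 3 arrays). The difference of 1.02 ± 0.30 (SE) missed the threshold (limma, adjusted p = 0.054; range over the alternatives 0.0039 to 0.18). An exact permutation test over the 6 arrays, two-sided, gave p = 0.1, the smallest that 3 against 3 allows. Without the 75% epiboly array the difference was 1.39 and its adjusted p 0.0039.

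The other accession, AF273897, was not matched to a gene. Its log2 ratio was 0.24, 0.27 and 0.21 at 75% epiboly, 90% epiboly and tailbud, against 0.12, 0.23 and 0.26 at 30% epiboly, 50% epiboly and shield. The values overlapped, with a difference of 0.04 ± 0.13 (SE; limma, adjusted p = 0.88). Its Cy5 signal was not above the blank level on any of the 9 arrays, so the lack of a difference says little about its transcript.

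The called probes differed in when they changed. Among probes higher in late gastrula and tailbud, the median log2 ratio was -0.59, -0.34, -0.27, 0.29, 0.50 and 0.65 from 30% epiboly to tailbud in stage order. Among the lower probes it was 0.40, 0.19, 0.20, -0.47, -0.63 and -0.77. The step from shield to 75% epiboly carried the largest median step, 0.53 for the higher and -0.63 for the lower probes. It was the largest of the 5 steps for 595 of the higher (58.7%) and 858 of the lower probes (66.2%), against 26.3% of all tested probes. A comparison of the 2 sides favours probes that change between shield and 75% epiboly, so these shares describe the called probes and are not evidence of a break there. The step from 50% epiboly to shield was the largest for 67 higher (6.61%) and 17 lower probes (1.31%), against 14.1% of all tested probes. The shares for shield to 75% epiboly moved with the setting. Under the stage channel alone they were 76.0% and 83.5%, and with the array's median Cy5 signal as a term 41.2% and 53.6%.

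**Figure D3:**
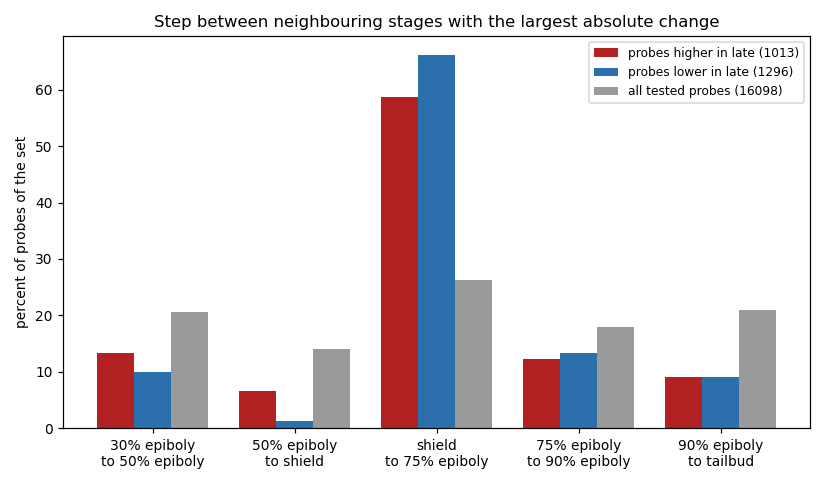
Bars give the percent of probes whose largest absolute change between neighbouring stages fell at each of the 5 steps from 30% epiboly to tailbud, for probes higher in late (red), lower in late (blue) and all tested probes (grey). Shield to 75% epiboly holds 58.7%, 66.2% and 26.3% of them.

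Some of the called probes also differed between arrays inside a side. The ratio climbed at all 5 steps for 237 of the 1013 higher probes (23.4%) and dropped at all 5 for 195 of the 1296 lower ones (15.0%), against 2.18% and 2.01% of all tested probes. From 75% epiboly to tailbud 107 higher probes gained at least 2-fold more and 1 lost as much, and 100 lower probes lost at least 2-fold more, against 270 gains and 266 losses among all 16098 tested probes. From 30% epiboly to shield 58 of the higher probes had already gained 2-fold and 28 of the lower ones had lost 2-fold, against 96 and 62 of all tested probes. The called probes were selected on these same arrays, and a comparison of the sides favours probes that climb or drop at every step. These counts therefore describe the called probes only. They compare single arrays and carry no test.

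The called probes were also followed back to the 3 earlier stages, whose arrays the comparison did not use. The pool held equal RNA from every stage, these included. A probe high at the late stages thus tends to negative ratios elsewhere, and a probe low there to positive ones. The signs of the medians at the earlier stages are therefore not independent of the choice of the probes. How far this carries the medians was not tested. Probes higher in late gastrula and tailbud had median log2 ratios of -0.98 at 64-cell, -0.84 at high and -0.89 at sphere. Of these 1013 probes, 566 (55.9%) were above the blank level at all 3 earlier stages and 312 (30.8%) at none, against 53.5% and 34.8% of all tested probes. In this respect the higher probes were close to all tested probes. Probes lower in late gastrula and tailbud had medians of 0.28, 0.33 and 0.44 at 64-cell, high and sphere. Of these 1296 probes, 1106 (85.3%) were above the blank level at all 3 earlier stages and 87 (6.71%) at none. Brighter probes were called more often, and how far this carries the share among the lower probes was not tested.

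The 70 strongest changes are described in the same way, and the same limit holds for the signs of their ratios. Of the 40 called probes at least 4-fold higher in late gastrula and tailbud, 20 were above the blank level at none of 64-cell, high and sphere and 13 at all 3. Their median ratio was -2.29, -1.38, -1.43, 0.18, 0.76 and 1.26 from 30% epiboly to tailbud. Of the 30 called probes at least 4-fold lower, 28 were above the blank level at all 3 earlier stages and 0 at none. Their median ratio was 0.75, 0.09, -0.01, -1.25, -2.14 and -2.40 from 30% epiboly to tailbud, and 0.97 at sphere. Shield to 75% epiboly was the largest step for 25 of the 40 and 22 of the 30. The software flagged at least 1 of the 6 spots for 15 of the 40 and 15 of the 30. Over all tested probes 40.7% had such a flag.

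**Figure D4:**
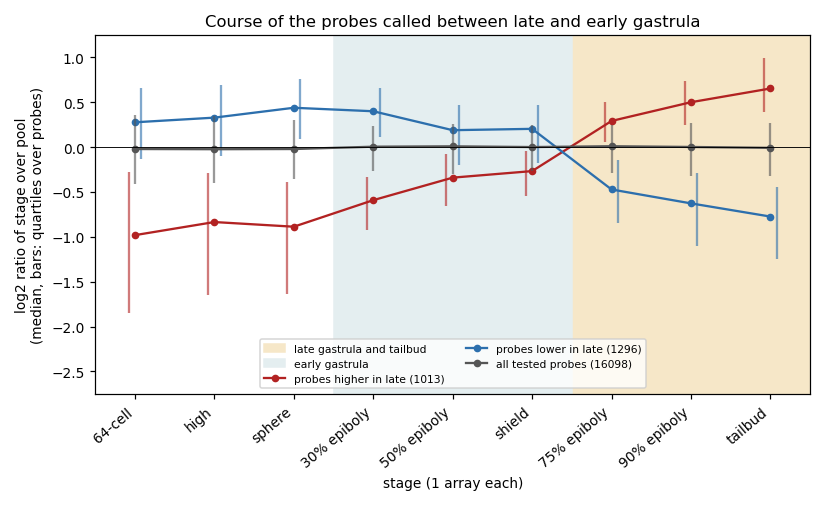
Median log2 ratio of stage over pool at the 9 stages, with quartiles over probes as bars, for the 1013 probes higher in late (red), the 1296 lower in late (blue) and all 16098 tested probes (grey). The courses of the higher and lower probes cross between shield and 75% epiboly, which the choice of the sets by the difference between the sides favours. From 64-cell to sphere the higher probes have medians of -0.98 to -0.84 and the lower probes of 0.28 to 0.44. The signs of these medians are not independent of the choice of the sets, because the pool holds RNA from every stage.

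Detection on the 6 arrays themselves was lopsided. Of the higher probes, 541 were above the blank level on all 6 arrays and 168 on all 3 late arrays but no early one. Over all tested probes, 708 were above it on the late side alone and 2 on the early side alone. Of the lower probes, 879 were above it on all 6 arrays. These are 53.4% of the higher and 67.8% of the lower probes, against 39.7% of all tested probes (6391). On none of the 6 arrays were 29 higher and 106 lower probes above it, 2.86% and 8.18%, against 24.55% of all tested probes. The median Cy5 signal and the number of probes above blanks were also higher on the late side. Their part in the lopsided detection was not tested. Among the 168 probes, 101 were above the blank level at none of the 3 earlier stages and 33 at all 3. Among the 708 tested probes above it on the late side alone these were 310 and 198. Calls came more from bright probes: with the tested probes split by signal into 3 parts of 5366, 10.2% and 13.9% of the brightest part were higher and lower in late gastrula and tailbud, against 2.12% and 2.31% of the dimmest part.

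The same pool RNA lay on every array, so its channel was used as a background for the stage channel. Single spots of the pool still differed with the side as scanned, as given above for CGENXEB_456013104_0. The pool channel was fitted alone after quantile normalization, unlike the loess ratios, and its count can be set only against the stage channel treated alike. In the pool channel 1 of the 16098 probes (0.00621%) differed between late and early arrays and 1201 had an unadjusted p under 0.05. The stage channel gave 534 higher and 504 lower probes, 6.45% of those tested, and 3522 had an unadjusted p under 0.05. Called or not, 88 probes differed at least 2-fold in the pool channel and 1005 in the stage channel. Of the probes called by the ratio, 435 of the higher and 454 of the lower ones were called with the same sign in the stage channel, and 19 had the opposite sign there. An effect on Cy5 only, or a shift common to all spots of an array, would not appear in the pool channel. The blank spots had a mean log2 ratio of 0.54, 0.45 and 0.40 on the late arrays and 0.68, 0.67 and 0.70 on the early ones, a difference of -0.22. Control spots of ssDNA, hCot-1 and YtRNA, whose median signal was below the blank level on at least 1 array, shifted further in the same direction, by -0.61, -0.48 and -0.42. The sides overlapped for none of these 4 kinds of spot (exact two-sided permutation test, p = 0.1 each, the smallest that 3 against 3 allows). Control spots with a median signal above the blank level on all 6 arrays differed in the other direction. The difference was 0.24 for CGENZFCTRL_40001_0 and 0.14 for the pooled control, without overlap (exact two-sided permutation test, p = 0.1 each). For polyA it was 0.09, and the sides overlapped. The smallest called difference was 0.44 in size in each direction, less than the shifts of ssDNA and hCot-1. The dimmest part of the probes had a median difference of 0.00. Loess was fitted to the probes without the controls and centres them at each signal level, so this value says nothing about the shifts. The part of these shifts in the calls was not tested.

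Calls also varied over the surface of the array. Among the 32 print blocks, the share of probes called higher ranged from 1.74% to 16.1% and of those called lower from 0.85% to 17.6%, while the block's median difference ranged from -0.20 to 0.12. Loess within each block narrowed these shares to 4.28% to 10.9% and 4.24% to 12.9%, with 1088 higher and 1430 lower probes in all. Of the calls made with 1 loess curve per array, 854 of 1013 and 1122 of 1296 were kept. Among IDs printed on several spots, 127 were tested, and the difference varied between spots of an ID by a median SD of 0.17.

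The number of calls depended on single arrays. Without the shield array 586 probes were higher and 698 lower in late gastrula and tailbud, and 558 and 681 of these were called with all 6 arrays. Leaving out 30% epiboly gave 322 and 461, and leaving out 50% epiboly gave 628 and 956. On the late side, the fit lacking 90% epiboly gave 338 and 515, that lacking tailbud 518 and 766, and that lacking 75% epiboly 1197 and 1526. Called with the same sign in all 6 of these fits were 269 higher and 387 lower probes, with median differences of 1.20 and -1.17, and all of them were also called after print-block loess. With each array's median Cy5 signal as a term there were 461 and 420 calls, of which 392 and 369 were shared. That signal does not overlap between the sides, so the term and the side are hard to separate in the fit. Under it the difference was 4.89 for CGENXEB_456008602_0 and -5.90 for CGENXEB_456013104_0, larger in size than without it. These probes had been chosen for their large differences. Whether the fewer calls under this term go with smaller differences in the other probes was not tested. The authors' value table as deposited is not centred, with a median difference of 0.45 over all probes, and gave 4620 higher and 271 lower probes. With each array's median subtracted it gave 513 and 788.

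**Figure D5:**
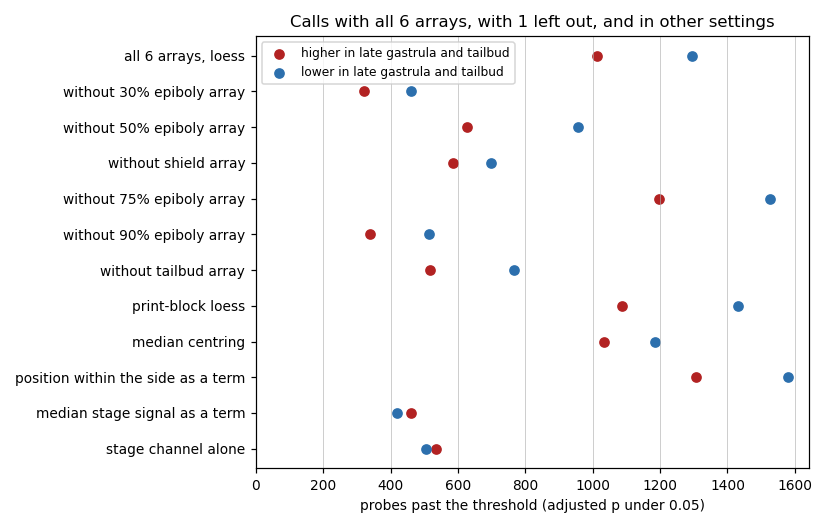
Number of probes past the threshold that were higher (red) and lower (blue) in late gastrula and tailbud, with all 6 arrays, with each array left out, and in other settings. All 6 arrays give 1013 higher and 1296 lower probes, the fit without 30% epiboly 322 and 461, the median Cy5 signal as a term 461 and 420, and position within the side as a term 1307 and 1579.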

How the data were processed

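The deposited scanner tables hold spot and local background intensity per channel on a linear scale, not normalized, combined by ImaGene from a red and a green image per the file headers. The authors deposited a value table on the log2 scale, which equalled log2 of red over green (spot mean minus background mean) within 0.001 for 99.2% to 99.3% of the IDs on the 6 arrays, so it is stage over pool and uncentred. Per the labels' protocols, antisense RNA was amplified from 800 ng of total RNA, and the stage was Cy5. The sources used here do not explain the flag codes.

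The background of the spot means was corrected by normexp (offset 50, background medians) and each array was normalized by loess, with controls given weight 0 (limma 3.58.1, R 4.3.3). Spots sharing an ID were averaged. Testing required a spot median over the background median by 2 SD in either channel on 3 or more of the 6 arrays, and 80 of 16178 IDs were left out. The blank level used spot medians. Late minus early was fitted with lmFit and eBayes on 6 arrays (4 residual degrees of freedom), as a two-sided test, and p-values were adjusted over all 16098 tested probes by Benjamini-Hochberg (threshold 0.05).

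In simulated data with the real spread of the 16098 probes, the test found 2 of 50 probes with a log2 difference of 0.5, 32 of 50 with 1, 48 of 50 with 2 and 50 of 50 with 4, and called 5 unchanged probes. The simulated noise was independent for each probe and array, so array effects shared by many probes were left out. Far fewer probes were changed than were called in the real data, which makes the adjustment of p-values stricter. Neither the detected shares nor the number of unchanged probes called carries over to the real comparison. The number of arrays limits the precision. The named IDs followed a rule: per direction, the largest called difference among probes above blanks on all 6 arrays, and among those above blanks on the higher side alone, beside both accession IDs. RefSeq names (GRCz12tu) matched 1 of the 2 accessions. The arrays, comparison and rules were chosen with earlier results of these data known. Alternatives covered background correction, spot summary, normalization, filters, the authors' table, covariates, the channel and leaving out each array.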

Additional observations from a re-analysis of the deposited data

Results flagged for a closer look

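Control spots of 3 kinds took no part in the comparison and gave a Cy5 signal above the blank level on all 6 arrays. The 172 spots of CGENZFCTRL_40001_0 had a median of at least 14.9 times that level, and their mean log2 ratio was -0.02 in late gastrula and tailbud and -0.26 in early gastrula. The 31 spots named pooled control had at least 24.6 times that level, with mean ratios of 0.03 and -0.11. The 16 polyA spots had at least 1.97 times that level, with mean ratios of 0.51 and 0.42. The sources used here do not say which RNA these spots measure.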

How the results depend on the processing

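The numbers of probes higher and lower in late gastrula and tailbud were 1013 and 1296, and stayed within 1.5 times these under 12 and 13 of 22 alternatives. Beyond that lay the authors' value table (4620 and 271), that table with medians subtracted (513 and 788), the array's median Cy5 signal as a term (461 and 420), the 2-fold size rule (347 and 436) and the stage channel alone (534 and 504). Leaving out 1 array gave 322 to 1197 higher and 461 to 1526 lower probes, with 1 array fewer in each fit. In the pool channel, against 1 call, there were 2 without background correction, 0 with plain subtraction, 2 with spot medians, 0 with the filter on the blank level, 3 without flagged spots, 2 with the median Cy5 signal as a term, and 1 to 4 with 1 array left out.

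The rarga probe, not past the threshold at 1.02, kept its direction under all 22 alternatives. It passed in 7 of them, as listed here. Among these were spot medians (1.01), the filter on the blank level (1.02) and the authors' table (1.57, above a shift of 0.45 of all probes). Others were position within the side as a term (1.02), trend and robust eBayes (1.02), and the fit without 75% epiboly. It also passed with flagged spots left out (1.02, over 9621 probes with an unflagged spot on each of the 6 arrays). With 1 array left out its difference ranged from 0.70 to 1.39. AF273897 changed sign with spot medians (-0.010), print-block loess (-0.012) and the stage channel alone (-0.093), and ranged from -0.006 to 0.067 with 1 array left out. CGENXEB_456008602_0 and CGENXEB_456000396_0 passed under every alternative that gave a value, 21 and 22. CGENXEB_456013104_0 and CGENXEB_456012994_0 passed under 20 of 21 each. All were chosen for large called differences on the same arrays, so passing again is no independent support. The cause of the changes between settings was not tested. A slide or scan batch as a block was not run, because the headers give none. Dim signal limits what can be said of the 3952 tested probes above the blank level on none of the 6 arrays.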

Other observations

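Spots carrying zebrafish genomic DNA by their name (zGenomic, 16 spots) had mean log2 ratios of -0.40, -1.22 and -1.34 at 75% epiboly, 90% epiboly and tailbud, against -0.35, -0.01 and -0.80 at 30% epiboly, 50% epiboly and shield. The sides overlapped at 75% epiboly, and the difference of -0.60 gave p = 0.2 in an exact two-sided permutation test over the 6 arrays. Their signal was not above the blank level on every array.

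A control printed as a dilution series differed in sign between its stronger and weaker spots. From the undiluted spot to the spot at 0.125 the late minus early difference was 0.30, 0.29, 0.30 and 0.20 on the log2 scale. From 0.0625 down to 0.0039 it was -0.14, -0.68, -0.55, -0.11 and -0.35, in no order with dilution. These are single spots on each array, with no test.

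The ID printed most often had 13 spots, whose late minus early differences ranged from -0.32 to 1.08, with a mean of 0.23 and an SD of 0.42 over spots (limma on their mean, adjusted p = 0.302).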
